A study of Mus musculus with 7 samples.

Results

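Genes of retinal ganglion cells were followed in RNA pulled down with tagged endothelial ribosomes from mouse retina: Pou4f1, Rbpms, Thy1, Slc17a6, Nefl, Nefm, Nefh, Sncg, Stmn2 and Gap43. They were taken by gene symbol from the deposited table, which lists 12756 genes, and 10 of 10 were present. Retinas of mice treated with an antibody against Dll4 (4 libraries), a ligand of Notch receptors, were compared with retinas of mice given control IgG (3 libraries). Mice of both groups were adult, of strain C57BL/6 and of genotype Cdh5-CreERT2 Rpl22 tm1.1Psam. In these mice a Cre recombinase that tamoxifen activates is driven by the promoter of Cdh5, the endothelial cadherin, and switches the ribosomal protein Rpl22 to an HA-tagged form, so the tag is meant for endothelial cells and not for neurons. The labels give neither the dose and timing of the antibody nor the animals behind each library, so p-values measure the spread between libraries, part of which may be technical.

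Ganglion cells are the output neurons of the retina. Their cell bodies lie in the innermost layer beside the superficial vessels, and their axons form the optic nerve. They use glutamate as transmitter, and their long axons are filled with neurofilaments, polymers of a light, a medium and a heavy subunit. Pou4f1 (Brn3a) is a POU-domain transcription factor of ganglion cells, and Rbpms an RNA-binding protein widely used to label them. Thy1 is a surface glycoprotein anchored in the cell membrane. Slc17a6 is the vesicular glutamate transporter VGLUT2, Sncg is gamma-synuclein, and Stmn2 and Gap43 are a tubulin-binding and a membrane-bound protein of growing axons. Several of them are used by other cells too: neurofilament genes by horizontal cells, Rbpms by vascular mural cells, Thy1 by mouse T cells, and Stmn2 and Gap43 by amacrine cells.

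The libraries held 1493393 to 1771086 reads in the anti-Dll4 group and 1356192 to 1694586 reads in the control IgG group. Values are CPM, reads scaled to 1000000 reads on the listed genes in each library, and a single read was worth 0.565 to 0.737 CPM. Summed general endothelial markers (20 genes) had 6795 to 9619 CPM in anti-Dll4 and 2857 to 4659 CPM in control IgG libraries, with 0 of the 20 missing from the table. Summed rod markers (16 genes) had 11552 to 21111 CPM in anti-Dll4 and 25291 to 26372 CPM in control IgG libraries, so rod RNA was present in every library of what is labelled endothelial RNA. Input RNA was not analysed here, so enrichment by the pull-down was not measured.

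Transcripts of the ganglion cell genes were few, and uneven between libraries of the same group. Together they took 313 to 747 reads per anti-Dll4 library and 356 to 513 reads per control IgG library, which is 0.0294% ± 0.00928 of all CPM in anti-Dll4 (SD, n = 4) and 0.0281% ± 0.00642 in control IgG libraries (SD, n = 3). Of 70 values, 14 were 0 reads and 25 were 3 reads or fewer, the level taken here as the floor of detection (1.69 to 2.21 CPM). Nefm, Nefl, Rbpms and Stmn2 (4 of 10) had a read in each of the 7 libraries. A value of 0 says that the transcript was not detected at this depth, and the floor covers counting error only, since no molecular identifiers are named in the protocol.

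Of the 10 ganglion cell genes, 0 passed the test between anti-Dll4 and control IgG libraries. Changes are differences of mean log2(CPM + 1), anti-Dll4 minus control IgG, from a limma fit over 10899 genes, and a gene passed at a Benjamini-Hochberg adjusted p under 0.05. All 10 genes passed the filter on low values and were tested, 0 passed the threshold in either direction, and 0 had an unadjusted p under 0.05. Over all genes, 13 passed (0.119% of those tested), all of them higher. Scaling libraries on endothelial markers turned that split to 1 higher and 1550 lower of 10899 tested genes. Of the 10 ganglion cell genes, 1 (Sncg) was then among the lower. At an unadjusted p under 0.05, 3.41% of all genes were lower and 3.68% higher. Weighted linear models on whole reads (limma's voom) also called 0 of the 10. The changes had a median of -0.84, beside -0.14 over all tested genes, with 6 of 10 negative, beside 54.5% of all tested genes. The groups overlapped for 10 of 10 genes, beside 3.75% of all tested genes that were lower and 3.84% that were higher without overlap. In this pulled-down RNA, fewer cells of a type, less RNA per cell and a smaller share of neuronal RNA in the pull-down cannot be told apart.

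**Figure D1:**
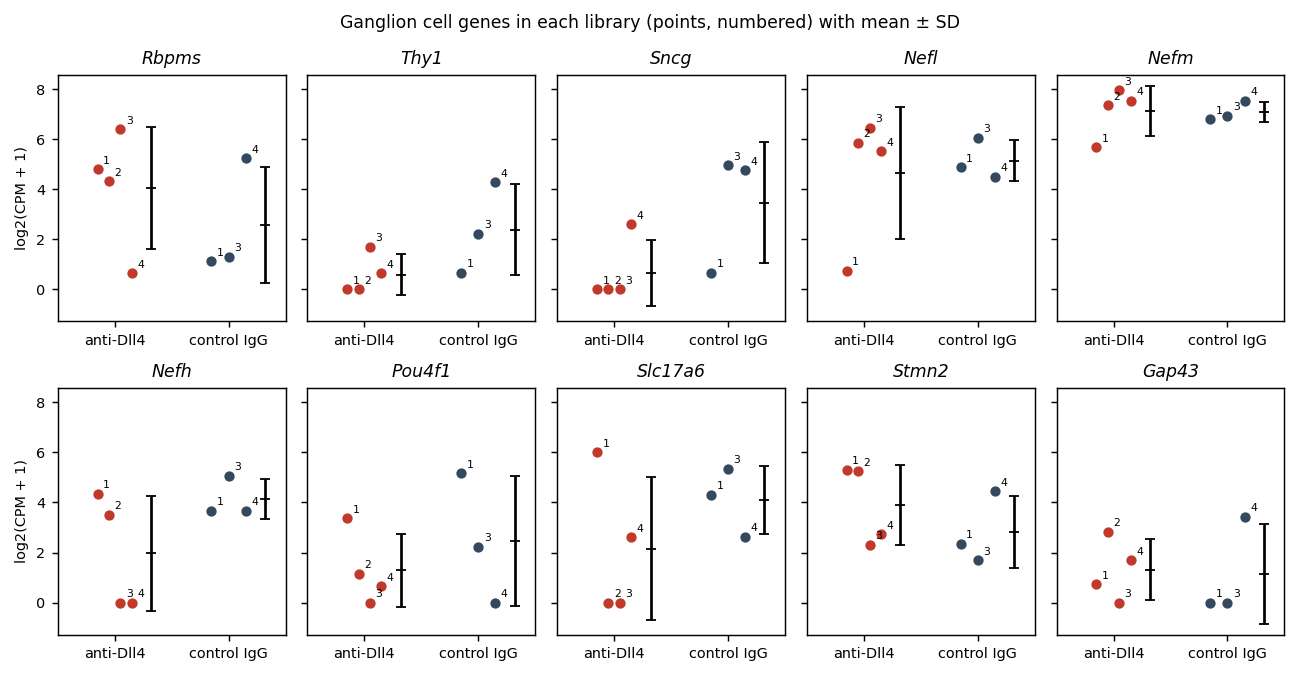
Level of each ganglion cell gene, log2(CPM + 1), in the 4 anti-Dll4 libraries (red, left) and the 3 control IgG libraries (dark, right). Points are libraries with their number, and bars are the mean ± SD. Nefm keeps to a narrow band, whereas Rbpms, Slc17a6, Pou4f1, Nefl and Nefh range from near or at 0 to above 5. Pou4f1 does so among control IgG libraries only, and Nefh only over both groups.

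Pou4f1, the transcription factor, had 9.37, 1.22, 0 and 0.565 CPM in anti-Dll4 libraries 1 to 4, against 34.8, 3.69 and 0 CPM in control IgG libraries 1, 3 and 4. Most of its reads came from control IgG 1, which held 59 of 81, and each group had a library at 0, so the groups overlapped. Its log2 change was -1.17 ± 1.40 (SE; adjusted p = 0.889, limma), and without control IgG 1 it was 0.18. Its close relative Pou4f2 (Brn3b), the paralogue that acts earlier in ganglion cells, had 59 reads in anti-Dll4 1 and 0 reads in each of the other 6 libraries, and was too sparse to test.

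Rbpms, the RNA-binding label of ganglion cells, had 26.8, 19.0, 83.3 and 0.565 CPM in anti-Dll4 libraries 1 to 4, against 1.18, 1.47 and 36.5 CPM in control IgG libraries. Anti-Dll4 1, 2 and 3 were above control IgG 1 and 3, but anti-Dll4 4 had 1 read and control IgG 4 was high. On the log2 scale Rbpms had a change of 1.49 ± 1.82 (SE; adjusted p = 0.894, limma), with a 95% interval of -2.29 to 5.26. The paralogue Rbpms2 had mean values of 31.0 CPM in anti-Dll4 and 59.7 CPM in control IgG libraries, with a log2 change of -1.12 ± 1.12 (adjusted p = 0.867, limma). Summed markers of mural cells, in which Rbpms is also known, were at 495 to 655 CPM in anti-Dll4 and 568 to 766 CPM in control IgG libraries (8 of 12 in the table, Kcnj8 at 0 in control IgG). Of these sums, Mylk alone averaged 333 of 576 CPM in anti-Dll4 and 495 of 664 CPM in control IgG libraries. Among the 7 mural markers tested, 3 had positive and 4 negative changes. The part of mural cells in the Rbpms values was not tested.

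Thy1, the surface glycoprotein, was at the floor in most libraries. It had 0, 0, 2.27 and 0.565 CPM in anti-Dll4 libraries 1 to 4, against 0.590, 3.69 and 18.2 CPM in control IgG libraries. Control IgG 4 gave 28 of its 39 reads, and the lowest control library lay below anti-Dll4 3. The change of Thy1 was -1.80 ± 1.10 on the log2 scale (SE; adjusted p = 0.757, limma), and without control IgG 4 it was -0.86. Summed lymphocyte markers (3 of 9 in the table) were at 4.89 to 59.6 CPM in anti-Dll4 and 2.95 to 9.59 CPM in control IgG libraries. Of these, Ptprc, which all leukocytes share, averaged 29.5 CPM in anti-Dll4 and 4.70 CPM in control IgG libraries, and Cd3d of T cells had 2, 1, 2 and 8 reads in anti-Dll4, against 2, 5 and 2 reads in control IgG libraries. Their part in the Thy1 values was not tested.

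Slc17a6, the glutamate transporter of ganglion cell terminals, had 63.6, 0, 0 and 5.08 CPM in anti-Dll4 libraries 1 to 4, against 18.9, 39.8 and 5.21 CPM in control IgG libraries. The highest and the lowest of its values both lay in the anti-Dll4 group. For Slc17a6 the log2 change was -1.95 ± 1.81 (SE; adjusted p = 0.859, limma), while mean CPM was 17.2 ± 31.1 in anti-Dll4 and 21.3 ± 17.4 in control IgG libraries (SD, n = 4 and 3). Slc17a7, the transporter VGLUT1 of photoreceptors and bipolar cells, averaged 507 CPM in anti-Dll4 and 584 CPM in control IgG libraries, with a log2 change of -0.23 ± 0.34 (adjusted p = 0.913, limma). Slc17a8, the transporter VGLUT3 of some amacrine cells, had 0, 0, 0 and 2 reads in anti-Dll4, against 55, 4 and 0 reads in control IgG libraries (log2 change -2.08 ± 1.10, adjusted p = 0.712, limma).

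Among the neurofilament subunits, Nefm and Nefl were highest in anti-Dll4 3 and Nefh in control IgG 3. Nefm, the medium subunit, had 50.2, 163, 247 and 185 CPM in anti-Dll4 libraries 1 to 4, against 110, 121 and 184 CPM in control IgG libraries. It gave 1737 reads over all libraries and is the gene whose change is bounded most closely: 0.05 ± 0.61 on the log2 scale (SE; adjusted p = 0.992, limma), with a 95% interval of -1.23 to 1.32. Anti-Dll4 1 was the low library for Nefm.

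Nefl, the light subunit, had 0.670, 56.9, 86.7 and 44.6 CPM in anti-Dll4 libraries 1 to 4, against 28.3, 65.6 and 21.5 CPM in control IgG libraries. Anti-Dll4 1 had a single read, and the other 3 anti-Dll4 libraries overlapped the control range. Nefl had a log2 change of -0.50 ± 1.37 (SE; adjusted p = 0.959, limma), whereas its mean CPM was 1.23 times the control IgG mean, and without anti-Dll4 1 the log2 change was 0.80. Its direction is therefore uncertain. In the GENCODE M21 annotation Nefl and Nefm are neighbours that overlap on opposite strands, and no label or header says whether strand was used in counting, so reads of the pair may not be separable.

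Nefh, the heavy subunit, had 19.4, 10.4, 0 and 0 CPM in anti-Dll4 libraries 1 to 4, against 11.8, 32.4 and 11.7 CPM in control IgG libraries. The 2 anti-Dll4 libraries without a Nefh read, 3 and 4, had Nefm at or above the highest control library. Anti-Dll4 1 had Nefh but hardly any Nefl. Nefh had a log2 change of -2.17 ± 1.71 (SE; adjusted p = 0.819, limma). Ina, the internexin subunit of neuronal filaments, had 36 reads in anti-Dll4 1 and 0 reads in every other library. Summed markers of horizontal cells, which use neurofilaments as well (5 of 7 in the table), were at 212 to 419 CPM in anti-Dll4 and 96.8 to 209 CPM in control IgG libraries. Of these sums, Tpm3 alone averaged 205 of 329 CPM in anti-Dll4 and 75.7 of 158 CPM in control IgG libraries. Among the markers, Tpm3, Prox1 and Sept4 had positive changes, and the defining factor Lhx1 had 10, 0, 0 and 0 reads in anti-Dll4, against 16, 0 and 0 reads in control IgG libraries. Their part in the neurofilament values was not tested.

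Sncg, gamma-synuclein, had the smallest unadjusted p of the 10 genes. It had 0, 0, 0 and 5.08 CPM in anti-Dll4 libraries 1 to 4, against 0.590, 30.2 and 26.1 CPM in control IgG libraries. That is 9 reads in all anti-Dll4 libraries, against 82 in all control IgG libraries, of which control IgG 1 gave 1 read and so fell inside the anti-Dll4 range. The change of Sncg was -2.81 ± 1.39 on the log2 scale (SE), with a 95% interval of -5.71 to 0.08 and an unadjusted p of 0.0561 (adjusted p = 0.706, limma). It ran from -4.21 without control IgG 1 to -2.06 without control IgG 3, and did not pass in any fit that left out a library. Under scaling on endothelial markers, which moved the median of all genes to -1.77, Sncg was at -4.44 (adjusted p = 0.0384). The related Sncb, beta-synuclein, had a log2 change of -1.14 ± 0.73 that did not pass (adjusted p = 0.764, limma).

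Stmn2, the tubulin-binding protein of growing axons, had 38.8, 37.3, 3.97 and 5.65 CPM in anti-Dll4 libraries 1 to 4, against 4.13, 2.21 and 20.9 CPM in control IgG libraries. Anti-Dll4 1 and 2 were above every control library and anti-Dll4 3 and 4 were not. Stmn2 had a log2 change of 1.07 ± 1.68 (SE; adjusted p = 0.917, limma). Other stathmins gave 0.78 ± 0.76 for Stmn1, -1.38 ± 1.78 for Stmn3 and -0.40 ± 1.40 for Stmn4 (adjusted p = 0.865, 0.901 and 0.969, limma).

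Gap43, the growth cone protein, had the fewest reads of the 10 genes, 15 in each group. It had 0.670, 6.12, 0 and 2.26 CPM in anti-Dll4 libraries 1 to 4, against 0, 0 and 9.78 CPM in control IgG libraries. All of its control IgG reads came from control IgG 4. Gap43 had a log2 change of 0.18 ± 1.11 (SE; adjusted p = 0.985, limma), although mean CPM was 0.694 times the control IgG mean, so its direction is uncertain. The related growth cone proteins Basp1 and Marcks had changes of -0.31 ± 0.90 and 0.67 ± 0.96 (adjusted p = 0.960 and 0.912, limma).

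Over the family relatives of these genes (12 of 14 in the table, 10 tested), 0 passed the threshold, 2 changes were positive and 8 negative, and the median was -0.76. Prph and Pou4f3 were not among the genes that the deposited table lists, so they could not be analysed.

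**Figure D2:**
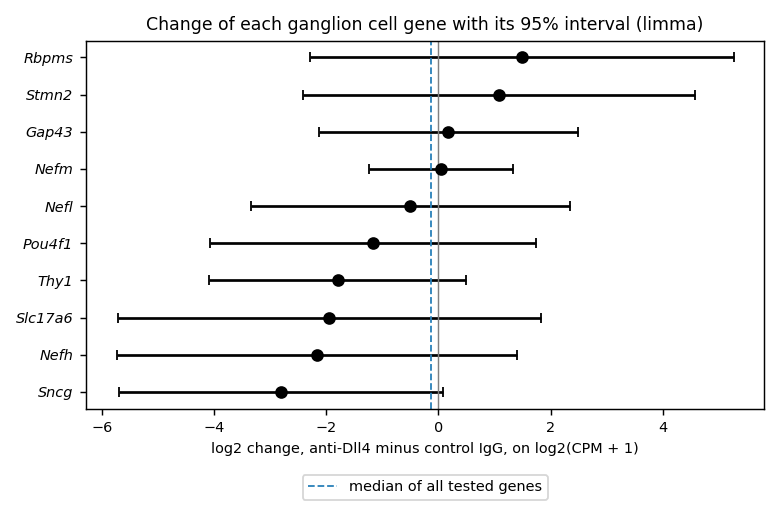
Log2 change of each ganglion cell gene, anti-Dll4 minus control IgG, with its 95% interval from limma; the dashed line is the median of all tested genes (-0.14). Every interval includes 0, and that of Nefm is the narrowest.

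The genes had their highest values in different libraries. Anti-Dll4 3 held the highest value of 3 of the 10 genes (Rbpms, Nefl and Nefm) and at the same time had 0 reads for 5 of them. Anti-Dll4 1 held the highest Slc17a6 and Stmn2, and anti-Dll4 2 and 4 held none. Values at 0 made up 27.5% of the members' anti-Dll4 values (11 of 40) and 10.0% of their control IgG values (3 of 30). Over all tested genes the shares were 11.3% in anti-Dll4 and 9.75% in control IgG libraries. Over all genes of the table they were 19.0% and 17.7%. By mean CPM the members ran from percentile 8.31 (Gap43) to 88.3 (Nefm) of the table, and these shares were not matched for level. Nefm and Nefl together gave 24.3% to 92.1% of the ganglion cell reads of an anti-Dll4 library and 61.6% to 65.7% of those of a control IgG library. The summed CPM of the 10 genes was 293.8 ± 92.8 in anti-Dll4 and 281 ± 64.2 in control IgG libraries (SD, n = 4 and 3). Without Nefl and Nefm it was 85.5 ± 57.2 in anti-Dll4 and 105 ± 29.2 in control IgG libraries. The mean log2 value of the 10 genes was 2.46 to 3.10 in anti-Dll4 and 2.96 to 4.05 in control IgG libraries, so the groups overlapped on this scale too.

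**Figure D3:**
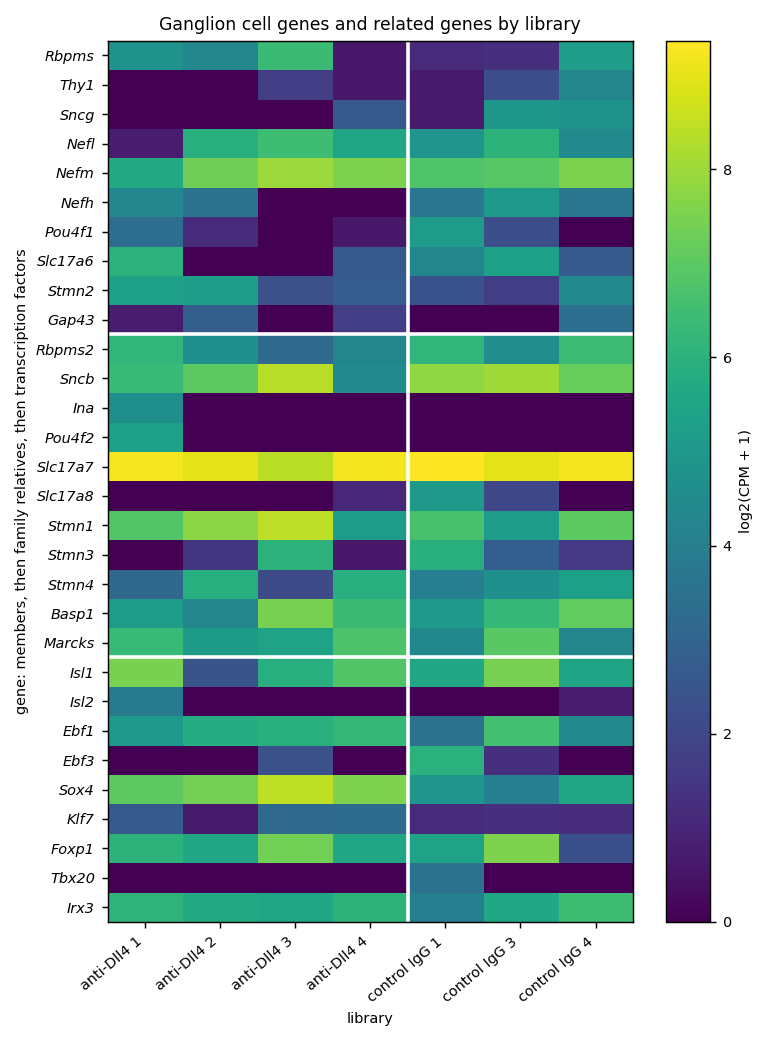
Levels, log2(CPM + 1), of the ganglion cell genes (top block), family relatives (middle) and ganglion cell transcription factors (bottom) in each library, anti-Dll4 left of the white line and control IgG right of it. Dark cells are at or near 0 reads; Ina and Pou4f2 are lit in anti-Dll4 1 alone.

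The spread of these genes between libraries lay on both sides of that of the table. On the log2(CPM + 1) scale the SD exceeded the median of all tested genes for 5 of 10 genes among anti-Dll4 libraries (median 1.56) and for 7 of 10 among control IgG libraries (median 1.05). The variance of reads, scaled to a common depth, over their mean is 1 when only counting error acts. It was above 1 for all 10 genes in both groups, running from 2.61 (Thy1) to 90.2 (Slc17a6) among anti-Dll4 and from 12.3 (Nefh) to 50.8 (Rbpms) among control IgG libraries. Over all tested genes this ratio was above 1 for 98.4% in anti-Dll4 and 96.0% in control IgG libraries, so the members did not stand apart. Its median over all tested genes was 43.7 in anti-Dll4 and 24.7 in control IgG libraries.

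**Figure D4:**
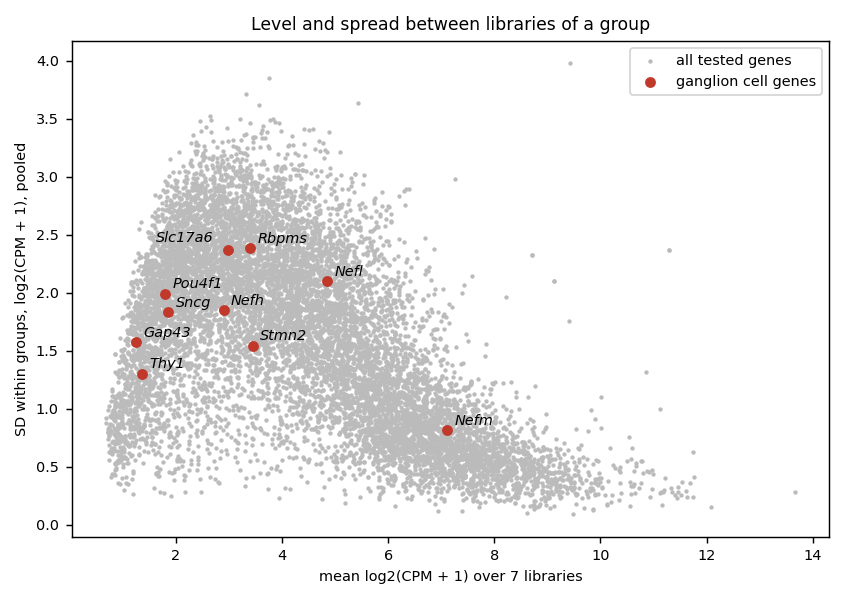
Mean level over the 7 libraries (x axis) and pooled SD within groups (y axis), both log2(CPM + 1), of all 10899 tested genes (grey) and the 10 ganglion cell genes (red). Nefm (SD 0.81) lies in the well-measured part of the cloud and the other ganglion cell genes, with SD from 1.30 (Thy1) to 2.39 (Rbpms), in the sparse part.

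Other genes tied to ganglion cells ranged from undetected to well covered. Of 18 transcription factors listed, 10 were in the table and 7 could be tested, with 0 past the threshold, 5 positive and 2 negative changes and a median of 0.91. Sox4, a factor of developing neurons that other cells also use, had the smallest p of these: 131, 169, 357 and 187 CPM in anti-Dll4 libraries 1 to 4, against 28.3, 15.5 and 48.2 CPM in control IgG libraries, without overlap (log2 change 2.78 ± 0.70, adjusted p = 0.178, limma). Ebf3 and Klf7, the next of the list, had changes of -1.85 ± 1.29 and 1.27 ± 1.30 (adjusted p = 0.791 and 0.869, limma). Isl2 had 21 reads in anti-Dll4 1 and 1 read elsewhere. Anti-Dll4 1 thus held nearly all reads of Pou4f2, Isl2 and Ina, and the most of Slc17a6, yet a single read of Nefl.

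Genes of ganglion cell subtypes (14 of 18 in the table, 10 tested) had 0 past the threshold, 3 positive and 7 negative changes and a median of -0.46. Chrnb3, a nicotinic receptor subunit, was at -1.56 ± 1.17, Spp1, osteopontin of the alpha cells, at 2.12 ± 1.44, and Rbpms2, given above, completes the 3 with the smallest p (adjusted p = 0.811, 0.780 and 0.867, limma). Opn4, the melanopsin of light-sensitive ganglion cells, had 0 reads in all anti-Dll4 libraries, against 4, 9 and 0 reads in control IgG libraries, which is too few to test.

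Genes of the neuronal axon and cytoskeleton, which all retinal neurons use, were better measured: 23 of 25 were in the table and 22 tested, with 0 past the threshold, 6 positive and 16 negative changes and a median of -0.42. Crmp1, a collapsin response mediator of axon guidance, had 6.03, 20.8, 17.6 and 13.6 CPM in anti-Dll4, against 93.8, 23.6 and 62.6 CPM in control IgG libraries, without overlap (log2 change -1.89 ± 1.24, adjusted p = 0.772, limma). Uchl1, a ubiquitin hydrolase abundant in neurons, chosen here after its values were seen because its groups did not overlap, had 21.4, 26.9, 11.9 and 39.0 CPM in anti-Dll4, against 56.7, 46.5 and 45.6 CPM in control IgG libraries (log2 change -1.08 ± 1.07, adjusted p = 0.866, limma). Ank2, an ankyrin of axons, and Cntn1, a contactin, had changes of -0.50 ± 0.37 and -1.85 ± 1.42 (adjusted p = 0.810 and 0.814, limma).

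The summed CPM of the ganglion cell genes as a percentage of the summed rod CPM was 0.993% to 3.66% in anti-Dll4 and 0.802% to 1.27% in control IgG libraries, with anti-Dll4 3 highest, where rod RNA was lowest. Rod markers had a median change of -0.65, cone markers -0.51, bipolar markers -0.59 and amacrine markers -0.88, with 0 members past the threshold in each, while general endothelial markers had a median of 1.71 with 1 of 20 past it (Ly6c1, 2.06 ± 0.38, adjusted p = 0.0319, limma). Summed CPM was 702 to 1284 for cone, 1831 to 2631 for bipolar and 233 to 602 for amacrine markers in anti-Dll4, against 930 to 1152, 2265 to 2789 and 542 to 695 in control IgG libraries. The part of these differences in the values of the ganglion cell genes was not tested.

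**Figure D5:**
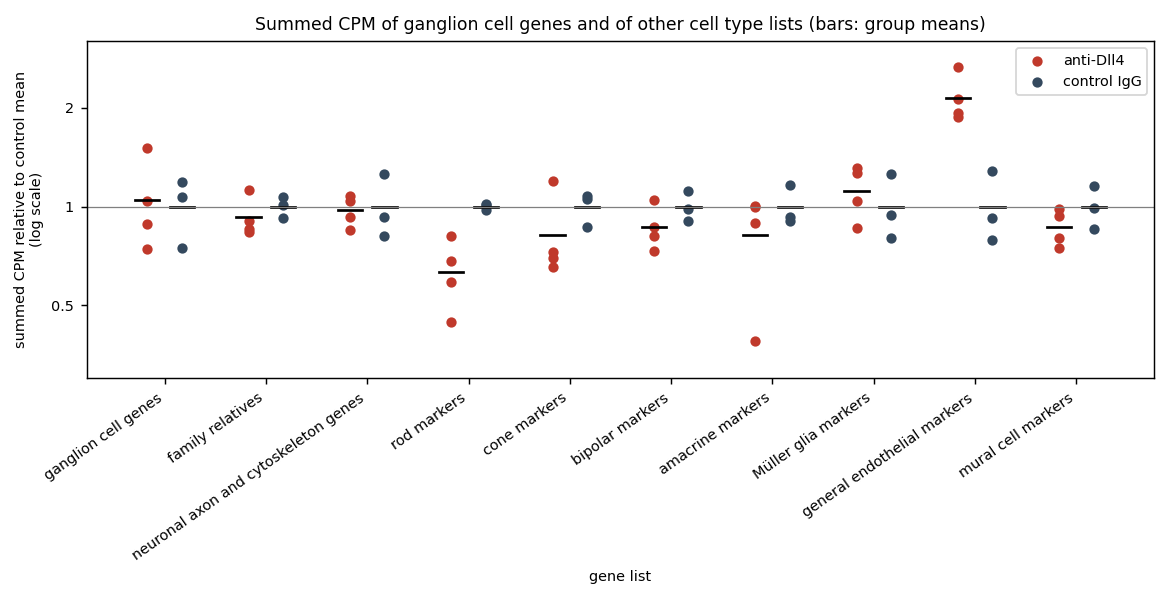
Summed CPM of the ganglion cell genes and of lists for other cell types in each library, relative to the mean of the control IgG libraries (log scale), anti-Dll4 in red on the left of each pair and control IgG dark on the right; bars are group means. Ganglion cell genes overlap between groups, rod markers are below and endothelial markers above the control IgG libraries in every anti-Dll4 library.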

How the data were processed

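Sequencing libraries were prepared with QuantSeq, a 3′ end method for poly(A) RNA, from RNA bound to HA-tagged ribosomes, per the labels' protocols. Per the submitters' processing notes, cutadapt, TopHat2 and bedtools were used, and hg19, a human build, is named although the symbols are mouse symbols (12616 of 12756 match GENCODE M21), so no coordinates are given. The authors deposited log10 values. Turned back, they are CPM plus 1, and the deposited CPM sum to 1000000 per library. All values (100%) were whole multiples of 1 read (tolerance 1e-06), so whole reads were computed. The control column numbered 1 matches no control title and entered as a control library without a replicate number.

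The fit used log2(CPM + 1) and kept a gene when 3 or more libraries had 1 CPM or more. It was made with limma 3.58.1 in R 4.3.3 (treatment only, mean-variance trend, two-sided, Benjamini-Hochberg over 10899 genes), a procedure tested on simulated data. The added 1 understates changes of low genes. The 17 alternatives changed the pseudocount, filter, trend, scaling, model, block or libraries. Counts of list members are read against all tested genes. The genes and lists were chosen with earlier results of these data known. Named are the 10 genes, their family relatives and, of each other list, genes past the threshold (up to 4) or else up to 3 with the smallest p, except 2 genes left out of the text. Isl2, Opn4, Uchl1, Lhx1, Atf3, Gadd45a and Trib3 were added after their values were seen.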

Additional observations from a re-analysis of the deposited data

Results flagged for a closer look

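Among the 4 anti-Dll4 libraries, 2 of the 10 ganglion cell genes had a library that stood far from the other 3. Sncg was at 2.60 log2(CPM + 1) in anti-Dll4 4 (9 reads) and at 0 reads in the other 3, where any value above 0 would stand apart. Nefl was at 0.740 log2(CPM + 1) in anti-Dll4 1 (1 read), against 79 to 153 reads in the other 3, a gap of 0.835 of the group's whole range, just past the 95% limit of Dixon's test. Chance alone is expected to pick out about 1 in 20 such groups, and 10 were looked at. Without anti-Dll4 1 the change of Nefl turned from -0.50 to 0.80 on the log2 scale, and neither value passed the test.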

How the results depend on the processing

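With a library left out in turn, the genes called higher over the whole table ran from 3 to 20, beside 13 in all libraries: 3 without anti-Dll4 4, 4 without control IgG 1, 6 without anti-Dll4 1 or 2, and 20 without control IgG 3. None was called lower in these fits, and 0 of the 10 ganglion cell genes passed in any of the 7. No gene was called higher (0) without the mean-variance trend, and 46 were under scaling on rod markers. Voom called 14 genes higher and 24 lower. Scaling on endothelial markers gave 1 gene higher and 1550 lower of 10899 tested. Of the 10 ganglion cell genes, 1 was then past the threshold (Sncg). Title numbers 3 and 4 occur in both groups, and so does the column number 1. Deviations across genes had r of 0.067 between the libraries numbered 4, 0.052 for number 1 and 0.046 for number 3. Every pair of unlike numbers was lower, at -0.037 to 0.015. These r are small, and whether a shared number marks a pairing was not settled, so the main fit has no block. The replicate block, whose changes rest on the 2 pairs numbered 3 and 4 alone, gave 1 gene higher and 2 lower.

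The median change of the ganglion cell genes (-0.84) stayed negative in all 17 alternatives, at -2.46 under scaling on endothelial markers and -0.28 under scaling on rod markers, which by construction shift all genes alike (median of all genes -1.77 and 0.42). The sign of Thy1, Sncg, Nefh and Slc17a6 held in every alternative in which they were tested, and that of the other 6 turned in at least 1, for Rbpms only under scaling on endothelial markers. By its shift alone, which says nothing of a gene's own direction, that scaling turned Rbpms to -0.14, Nefm to -1.58, Stmn2 to -0.55 and Gap43 to -1.45. The replicate block turned Nefl to 0.71, Stmn2 to -0.54 and Gap43 to -0.86. Rod scaling turned Nefl to 0.059 and a pseudocount of 5 CPM turned Gap43 to -0.053. Leaving out a library gave -0.40 to 1.32 for Gap43, -1.11 to 0.80 for Nefl, -0.23 to 0.53 for Nefm and -2.40 to 0.18 for Pou4f1. The cause was not tested. Thy1, Pou4f1 and Gap43 did not reach 5 CPM in 3 libraries, so that filter gives no value for them. Few reads and the spread between libraries limit what can be seen: the 95% interval of each gene except Nefm reaches beyond 2 log2 units in at least 1 direction.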

Other observations

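Genes induced in injured neurons (10 of 16 in the table, 9 tested) had 7 positive and 2 negative changes, with a median of 1.35 and 0 past the threshold. Csrp1, a LIM-domain protein also known from smooth muscle, had 225, 151, 286 and 313 CPM in anti-Dll4 libraries 1 to 4, against 2.95, 75.2 and 7.17 CPM in control IgG libraries, without overlap (log2 change 4.13 ± 0.91, adjusted p = 0.0851, limma). Ecel1, a neuronal metallopeptidase, had 23, 36, 0 and 109 reads in anti-Dll4 libraries, against 0 reads in each control IgG library. Its anti-Dll4 mean was 12.5-fold a floor of 3 reads per library, or 6.30-fold without anti-Dll4 4. That floor covers counting error only, so these ratios are no lower bound of the change. The groups overlapped at anti-Dll4 3 (adjusted p = 0.678, limma). Bbc3, the pro-apoptotic protein Puma, had a log2 change of 1.80 ± 0.88 (adjusted p = 0.705, limma). Atf3, an injury-induced transcription factor chosen here after its values were seen, had 0, 2, 0 and 30 reads in anti-Dll4, against 0 reads in each control IgG library. The 2 negative changes were those of Gadd45a, -1.09 ± 1.54, and Trib3, -0.75 ± 1.63 (adjusted p = 0.912 and 0.947, limma). Which cells the reads of this list came from was not tested.

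Among markers of other cells, those among the smallest p of each short list, many of them far from the threshold, included Nr2e3 (-1.15) and Rom1 (-0.82) of rods, Opn1sw (-1.31), Gnb3 (0.96) and Thrb (-3.11) of cones, and Gpr179 (-1.31), Trpm1 (-0.60) and Vsx1 (-2.00) of bipolar cells, as log2 changes. Next were Slc6a9 (-2.04), Chat (2.91) and Tfap2b (-1.37) of amacrine cells, Tpm3 (1.34), Prox1 (0.89) and Sept4 (0.99) of the horizontal list, and Vim (2.44), Rlbp1 (-1.55) and Car14 (-1.001) of Müller glia. For S100b of astrocytes the change was -3.41, for Mylk, Cnn1 and Tagln of mural cells -0.69, 1.01 and 0.69, and for Ptprc and Cd3d of lymphocytes 1.97 and -0.15. Over lists, the median change was 0.99 for horizontal (3 tested), 0.15 for Müller glia (12 tested), -0.03 for mural (7 tested) and 0.91 for lymphocyte markers (2 tested). None of these genes passed the threshold (adjusted p = 0.0656 for Vim, the smallest).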
